A study of Homo sapiens with 6 samples.

Results

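The genes described here lie on the short arm of human chromosome 20 and were listed, in their order along the arm, because the region read low in a melanoma line that overexpresses a TET2 construct called TET2M. The list names 60 genes, of which 58 had a probe set assigned to a single gene and were measured, out of 143 tested genes of the short arm and 14428 tested genes in all. NOP56 was represented only by probe sets that name several genes, and CRNKL1 had no single-gene probe set in the annotation used, so both were not analysed here. The study grew 3 lines derived from A2058, an established human melanoma line: a Mock line, a line overexpressing TET2WT and a line overexpressing TET2M, a construct that another label calls Mut. Each line was kept for 7 days in DMEM with glucose at 4.5 g/L, the high concentration, or 1 g/L, the normal one, and total RNA of each of the 6 combinations was hybridised to 1 Affymetrix array. The labels name no promoter, vector or mutated residue for the constructs and do not say whether a line is 1 clone. Differences that belong to the cells of a line and differences made by its construct cannot be told apart with 1 line per construct.

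The short arm of chromosome 20 carries no single pathway. Its genes include JAG1, a ligand of Notch receptors, BMP2, a secreted growth factor of the TGF-beta superfamily, SIRPA, the inhibitory receptor for CD47, PRNP, which encodes the prion protein, and many genes that most cells use for splicing, protein turnover and mitochondrial work. TET2 is a dioxygenase that oxidises 5-methylcytosine in DNA, a step towards its removal, and it is often mutated in blood cancers. CpG-rich promoters, the usual kind for widely used genes, are places where DNA methylation is kept low.

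TET2 itself separated the 3 lines. On the log2 scale of the deposited values, TET2 read 3.81 and 4.13 in Mock (at 4.5 and 1 g/L), 9.54 and 9.68 in TET2WT and 7.57 and 7.37 in TET2M. SOX10, a transcription factor of the melanocyte lineage, read 9.38 to 9.65 over the 6 arrays, S100B 7.20 to 7.90 and MITF 6.30 to 6.96, whereas the pigment genes MLANA, TYR and TYRP1 lay at or below 2.64, the level under which probe sets were treated as close to background, and the pigment gene PMEL read 3.55 to 4.20. The blood marker PTPRC read at most 2.22 and CD3E at most 2.93, and of the endothelial markers CDH5 read at most 2.24 and PECAM1 4.09 to 4.45. KRT14, a keratin of basal keratinocytes, read 3.89 to 6.86, with both TET2WT arrays below the other 4, and its part in any difference between lines was not tested. The other keratinocyte marker, KRT5, read 2.67 to 3.54 and did not have that pattern (TET2WT 3.27 and 2.67). Of the fibroblast markers COL1A1 read 4.18 to 4.81 and DCN 2.96 to 3.60. Of the markers of undifferentiated melanoma AXL read 9.44 to 9.83, NGFR 2.72 to 3.81 and EGFR 3.48 to 4.01. Ranked from low to high, values of any pair of arrays lay within 0.12 of each other, and a change shared by most genes could not be seen on such a scale.

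Promoter sequences are shown for the 3 members that read lowest and the 3 that read highest in TET2M, relative to the mean of Mock and TET2WT, among the 46 members with an entry in the RefSeq promoter table. They are given because TET2 acts on methylated cytosine, which in mammalian cells generally lies mainly in CpG. Each is the 250 bases before the annotated start of the gene (GRCh38.p14), 5′ to 3′ on the strand of the gene, with every CpG in capitals. The 3 low members are TBC1D20 (chr20:462534-462783, minus strand), CENPB (chr20:3786741-3786990, minus strand) and TASP1 (chr20:13638933-13639182, minus strand), and the 3 high members are MAVS (chr20:3846584-3846833, plus strand), DTD1 (chr20:18587804-18588053, plus strand) and FAM110A (chr20:835803-836052, plus strand).
TBC1D20: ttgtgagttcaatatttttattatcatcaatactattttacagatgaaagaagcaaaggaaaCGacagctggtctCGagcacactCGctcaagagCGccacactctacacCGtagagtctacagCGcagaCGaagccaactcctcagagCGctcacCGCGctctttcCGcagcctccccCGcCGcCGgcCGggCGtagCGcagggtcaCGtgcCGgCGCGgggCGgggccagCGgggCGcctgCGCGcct
CENPB: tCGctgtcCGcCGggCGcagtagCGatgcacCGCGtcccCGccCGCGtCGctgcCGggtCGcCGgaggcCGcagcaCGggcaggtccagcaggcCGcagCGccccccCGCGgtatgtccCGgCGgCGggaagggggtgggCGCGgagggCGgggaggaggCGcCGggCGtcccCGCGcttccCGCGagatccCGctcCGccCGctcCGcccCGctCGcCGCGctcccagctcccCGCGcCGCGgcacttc
TASP1: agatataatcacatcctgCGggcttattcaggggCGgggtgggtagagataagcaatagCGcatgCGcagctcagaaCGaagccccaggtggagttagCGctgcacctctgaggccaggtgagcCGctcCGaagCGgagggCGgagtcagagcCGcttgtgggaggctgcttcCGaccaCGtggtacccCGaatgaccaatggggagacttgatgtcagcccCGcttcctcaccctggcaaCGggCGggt
MAVS: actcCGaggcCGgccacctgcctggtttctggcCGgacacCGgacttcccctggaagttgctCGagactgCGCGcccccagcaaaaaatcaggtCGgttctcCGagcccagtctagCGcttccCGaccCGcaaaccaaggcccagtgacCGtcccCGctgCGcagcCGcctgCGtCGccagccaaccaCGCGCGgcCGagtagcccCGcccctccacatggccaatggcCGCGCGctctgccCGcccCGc
DTD1: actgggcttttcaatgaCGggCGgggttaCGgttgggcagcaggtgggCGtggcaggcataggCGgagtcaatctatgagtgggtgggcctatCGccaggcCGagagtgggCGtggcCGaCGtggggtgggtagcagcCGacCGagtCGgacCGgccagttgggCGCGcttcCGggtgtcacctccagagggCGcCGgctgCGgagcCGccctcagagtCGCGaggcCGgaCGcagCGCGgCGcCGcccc
FAM110A: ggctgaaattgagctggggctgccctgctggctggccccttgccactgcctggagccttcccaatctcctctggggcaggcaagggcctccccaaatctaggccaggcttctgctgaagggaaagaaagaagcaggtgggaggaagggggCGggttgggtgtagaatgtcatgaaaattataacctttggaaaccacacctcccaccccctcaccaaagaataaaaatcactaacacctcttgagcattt

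The windows of TBC1D20, CENPB and TASP1 held 26, 45 and 17 CpG, and those of MAVS, DTD1 and FAM110A held 28, 29 and 1. CpG-rich windows were therefore found among both the low and the high members shown. Over the 46 members the median was 22 CpG, with quartiles of 17 and 28. The 5577 tested genes with a mean value of at least 6 and a promoter entry had the same median of 22, with quartiles of 16 and 29. The median was 22 in the 33 members whose TET2M values both lay below those of the other lines and 24 in the 13 others. A search for GGGCGG on either strand, the core of the GC box, matched 33 members (71.7%), against 69.1% of the tested genes with a mean value of at least 6 and 42.3% of all 27305 promoters in the table. CCAAT on either strand matched 15 members (32.6%), against 36.7% and 33% in the same sets. TATAAA on either strand matched 0 members, against 4.81% and 11.1%. Split by the TET2M values, the GC box matched 21 of the 33 members with both TET2M values below the other lines (63.6%) and 12 of the 13 others (92.3%), and CCAAT matched 8 (24.2%) and 7 (53.8%), with no test made. Over the 11512 tested genes with an entry, the shares were 64% for the GC box and 34.6% for CCAAT. The split used the values that chose the members, and 13 genes are few. These matches describe letters only, and methylation was not measured here.

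In TET2M most of the short-arm members lay lower than in both other lines, by an amount that was mostly small and varied between genes. The mean difference of TET2M from Mock was negative for 57 of the 58 members, beside 54.7% of all genes, with a median of -0.30 on the log2 scale, that is a level 1.23-fold lower. Against TET2WT it was negative for 53 members, beside 49.8% of all genes, with a median of -0.23 (1.17-fold lower). Over all tested genes the same medians were -0.02 and 0.00. These values chose the members, so they are given as a description with no test, and 1 array per line and concentration gives no spread between repeated cultures. In such bulk RNA, fewer cells with a gene on and less RNA per cell cannot be told apart.

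Both TET2M values lay below all 4 values of Mock and TET2WT in 38 of the 58 members, beside 1088 of all 14428 genes (7.54%), and both lay above the other 4 in 0 members, beside 724 genes (5.02%). The difference was negative in all 4 matched pairings of TET2M with Mock and TET2WT at the same glucose concentration in 46 members, beside 13.6% of all genes. From Mock the quartiles of the members were -0.45 and -0.22, beside -0.115 and 0.075 for all genes, and 51 members lay between -0.1 and -0.6. From TET2WT the members ranged from -1.37 to 0.35. TET2M was below Mock by at least 0.322 on the log2 scale at both concentrations in 18 members (1.75% of all genes) and at least 1.5-fold below in 0 (0.374% of all genes). Against TET2WT, 12 members were lower by at least 0.322 at both concentrations (4.04% of all genes) and 4 at least 1.5-fold lower (1.4% of all genes). The median difference from Mock was similar at the 2 concentrations, -0.295 at 4.5 g/L and -0.33 at 1 g/L, and so was that from TET2WT, at -0.22 and -0.23.

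**Figure D1:**
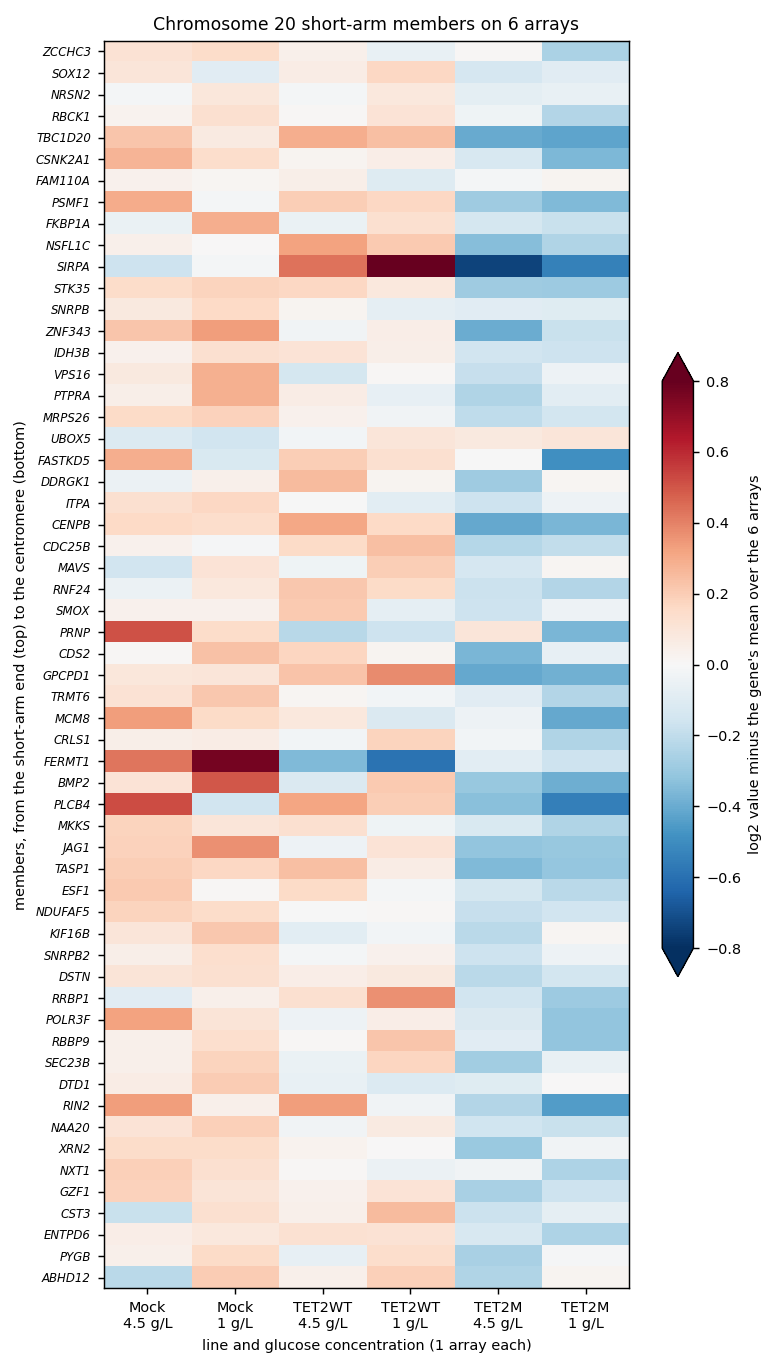
The 58 members (rows, in their order along the short arm) on the 6 arrays (columns); the colour gives the log2 value minus the mean of the gene over the 6 arrays, blue for lower and red for higher. The 2 TET2M columns are blue for most members, with SIRPA lowest in TET2M and highest in TET2WT, and FERMT1 highest in Mock and lowest in TET2WT.

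Among the roles the lowest median from Mock, -0.455, was that of the 10 signalling and surface proteins (range -0.65 to -0.035). Both TET2M values lay below the other 4 in 7 of them, and 7 were below Mock by at least 0.322 at both concentrations. SIRPA read 5.47 and 5.62 in Mock, 6.07 and 6.67 in TET2WT, and 4.90 and 5.10 in TET2M, at 4.5 and 1 g/L in that order, which is kept below. On this probe set its TET2M values were the lowest and its TET2WT values the highest, 1.46-fold below Mock and 2.58-fold below TET2WT on average. A further SIRPA probe set, at a mean of 5.11, differed in TET2M by only -0.28 from Mock and -0.24 from TET2WT. Another, at 2.64, differed by 0.205 and 0.21. The ligand BMP2 read 5.13 and 5.52 in Mock, 4.91 and 5.23 in TET2WT, and 4.72 and 4.63 in TET2M. The Notch ligand JAG1 read 7.99 and 8.17, 7.76 and 7.91, and 7.49 and 7.50. On average both ligands were highest in Mock, intermediate in TET2WT and lowest in TET2M, and TET2M differed from Mock by -0.65 (BMP2) and -0.585 (JAG1). A second BMP2 probe set, at a mean of 4.96, differed by -0.41 from Mock and -0.24 from TET2WT. There TET2M and TET2WT both read 4.83 at 4.5 g/L, so TET2M was not below the other 4 arrays.

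PLCB4, a phospholipase C that acts downstream of G-protein-coupled receptors, read 4.50 and 3.82 in Mock, 4.29 and 4.17 in TET2WT, and 3.64 and 3.43 in TET2M. It was the member closest to background, with the 2 Mock arrays 0.68 apart. CSNK2A1, a catalytic subunit of casein kinase 2, read 8.73 and 8.60, 8.48 and 8.51, and 8.33 and 8.10, and the kinase STK35 read 8.18 and 8.21, 8.20 and 8.12, and 7.75 and 7.74. In both kinases TET2M was lowest, 1.37-fold below Mock. The receptor phosphatase PTPRA (-0.33 from Mock) was also below the other 4 arrays, narrowly at 1 g/L (4.74 against 4.76 in TET2WT). The 3 signalling members that were not were PRNP, CST3, which encodes the protease inhibitor cystatin C, and MAVS, the mitochondrial adapter of RNA sensing, which read 6.93 and 7.19 in Mock, 7.05 and 7.28 in TET2WT, and 6.95 and 7.10 in TET2M, so that its lines overlapped.

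The 10 members of ubiquitin, proteasome and protein modification had a median of -0.295 from Mock (range -0.515 to 0.22), with 8 below the other 4 arrays. TASP1, a protease that cleaves the regulator KMT2A, read 5.49 and 5.46 in Mock, 5.53 and 5.35 in TET2WT, and 4.94 and 4.98 in TET2M. PSMF1, a proteasome regulator, read 6.97 and 6.66, 6.87 and 6.84, and 6.39 and 6.32. NSFL1C, a cofactor of the ATPase VCP, read 8.28 and 8.24, 8.56 and 8.45, and 7.90 and 8.0. On the probe sets used, Mock and TET2WT lay close together or TET2WT was higher in these 3 genes, and TET2M was apart from both. A further TASP1 probe set, at a mean of 3.45, differed by -0.025 from Mock and 0.305 from TET2WT. Those of PSMF1 differed by -0.265 to -0.36 from Mock but overlapped. Further NSFL1C probe sets at 8.235, 7.11 and 3.825 were below the other 4 arrays, and those at 6.60 (-0.07 from Mock) and 2.91 (0.125) were not. The remaining members below the other 4 arrays were MKKS, a chaperonin-like protein (-0.32 from Mock), NAA20, a catalytic subunit of an N-terminal acetyltransferase (-0.32), the prolyl isomerase FKBP1A (-0.28), the RING protein RNF24 (-0.225) and RBCK1, a part of the linear ubiquitin ligase (-0.21). DDRGK1, which works in the ufmylation of proteins, was not, at -0.135 from Mock, and its difference was 0.05 without the TET2M array at 4.5 g/L and -0.32 without that at 1 g/L. The further probe sets of FKBP1A, at -0.34 to 0.03 from Mock, all overlapped with other lines. Those of RNF24 at means of 5.68 and 5.73 overlapped (-0.22 and -0.235 from Mock), and that at 3.49 did not (-0.295). That of RBCK1 at 5.425 overlapped (-0.06 from Mock), and that at 3.10 did not (-0.26).

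UBOX5, which encodes a U-box ubiquitin ligase, was the 1 member with a higher mean in TET2M than in Mock. It read 4.05 and 4.01 in Mock, 4.14 and 4.26 in TET2WT, and 4.24 and 4.26 in TET2M, so that TET2M and TET2WT overlapped. A second probe set of UBOX5, at a mean of 3.42, differed by -0.16 from Mock, the opposite sign.

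The 12 members of mitochondria and metabolism had a median of -0.25 from Mock (range -0.49 to -0.10) and all 12 were negative against both lines, with 6 below the other 4 arrays. GPCPD1, a phosphodiesterase of glycerophosphocholine, read 6.82 and 6.83 in Mock, 6.96 and 7.11 in TET2WT, and 6.32 and 6.35 in TET2M. FASTKD5, which takes part in processing mitochondrial RNA, read 7.41 and 7.00, 7.32 and 7.25, and 7.12 and 6.63. GPCPD1 stood apart in TET2M at both concentrations, whereas the TET2M value of FASTKD5 at 4.5 g/L lay above the Mock value at 1 g/L. A further GPCPD1 probe set, at a mean of 4.66, was also below the other 4 arrays (-0.385 from Mock), and another, at 3.895, was not (0.085). MRPS26, a mitochondrial ribosomal protein, differed by -0.345 from Mock, CDS2, an enzyme of phospholipid synthesis, by -0.34, NDUFAF5, an assembly factor of complex I, by -0.33, ENTPD6, a nucleoside diphosphatase, by -0.255 and IDH3B, a subunit of the citric acid cycle enzyme isocitrate dehydrogenase, by -0.24. In each of those 5 both TET2M values were below the other 4. ITPA, which removes inosine triphosphate (-0.25), the glycogen phosphorylase PYGB (-0.23), the cardiolipin synthase CRLS1 (-0.185), the spermine oxidase SMOX (-0.14) and the lipase ABHD12 (-0.10) were lower on average but overlapped. SMOX was at 0.04 with the mean of its probe sets and at -0.01 without the TET2M array at 4.5 g/L, and ABHD12 was at 0.0075 without the Mock array at 1 g/L, so these 2 are not settled in sign.

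The 8 members of RNA processing and translation had a median of -0.295 from Mock (range -0.43 to -0.18) and -0.14 from TET2WT, with 6 below the other 4 arrays. POLR3F, a subunit of RNA polymerase III, read 6.71 and 6.49 in Mock, 6.35 and 6.44 in TET2WT, and 6.27 and 6.07 in TET2M. ESF1, which works on ribosomal RNA, read 8.83 and 8.63, 8.77 and 8.60, and 8.48 and 8.40. SNRPB2, a protein of the U2 spliceosomal particle, read 11.31 and 11.40, 11.25 and 11.30, and 11.10 and 11.22. In all 3 genes the TET2M values were the lowest, though for SNRPB2 the nearest TET2WT value was only slightly higher. The splicing protein SNRPB, the tRNA methyltransferase subunit TRMT6 and the exoribonuclease XRN2 were also below the other 4, at -0.215, -0.33 and -0.305 from Mock. The margin was narrow for SNRPB (10.58 in TET2M, 10.60 in TET2WT) and XRN2 (8.10 and 8.13). Second probe sets of SNRPB (mean 10.18) and XRN2 (7.23) were below the other 4 arrays, and that of TRMT6 (8.37) was not. The mRNA export factor NXT1 was at -0.30 from Mock and overlapped. DTD1, which clears D-amino acids from tRNA, read 9.24 and 9.38, 9.12 and 9.07, and 9.08 and 9.18, so that TET2M lay below Mock and beside TET2WT.

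Among the 8 members of membrane traffic, cytoskeleton and adhesion, the median from Mock was -0.295 (range -0.72 to -0.195) and 5 were below the other 4 arrays. TBC1D20, a regulator of Rab GTPases, read 6.91 and 6.76 in Mock, 6.98 and 6.93 in TET2WT, and 6.29 and 6.27 in TET2M. RIN2, an exchange factor for Rab5, read 6.34 and 6.05, 6.34 and 5.98, and 5.77 and 5.56. Mock and TET2WT lay close together in both genes, and TET2M lay 1.47-fold (TBC1D20) and 1.44-fold (RIN2) below Mock. The actin-severing protein DSTN (-0.295), the COPII coat subunit SEC23B (-0.28) and the ribosome-binding protein RRBP1 of the endoplasmic reticulum (-0.195) were below the other 4 as well. The vesicle tethering subunit VPS16 (-0.295) and the kinesin KIF16B (-0.255) overlapped with TET2WT.

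FERMT1, the integrin activator kindlin-1, had the lowest difference of TET2M from Mock and the highest from TET2WT. It read 7.36 and 7.70 in Mock, 6.58 and 6.34 in TET2WT, and 6.85 and 6.77 in TET2M. The 3 lines did not overlap and TET2M was in the middle, at -0.72 from Mock and 0.35 from TET2WT. PRNP read 10.20 and 9.84 in Mock, 9.47 and 9.53 in TET2WT, and 9.79 and 9.33 in TET2M. Its TET2M values lay on either side of those of TET2WT, with a mean difference of -0.46 from Mock and 0.06 from TET2WT. A second probe set of PRNP, at a mean of 6.65, differed by -0.005 from Mock and 0.355 from TET2WT, and the mean of both gave -0.23 from Mock.

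The 8 members of transcription, replication and cell division had a median of -0.32 from Mock (range -0.565 to -0.115) and all 8 were negative against both lines. CENPB, which binds centromeric DNA, read 5.61 and 5.59 in Mock, 5.76 and 5.61 in TET2WT, and 5.04 and 5.08 in TET2M. ZNF343, a zinc finger protein, read 5.56 and 5.67, 5.31 and 5.39, and 4.94 and 5.16. Both were below the other 4 arrays, CENPB by 1.45-fold from Mock and ZNF343 by 1.48-fold. The zinc finger protein GZF1 (-0.355), RBBP9, named for its binding to the retinoblastoma protein (-0.29), and the mitotic phosphatase CDC25B (-0.225) were also below the other 4. The helicase MCM8 (-0.465), the nucleic acid binding protein ZCCHC3 (-0.255) and the transcription factor SOX12 (-0.115) overlapped with at least 1 of the other lines. The last 2 members have no role above. NRSN2 read 4.19 and 4.30 in Mock, 4.19 and 4.29 in TET2WT, and 4.13 and 4.15 in TET2M, and FAM110A read 4.03 and 4.01, 4.04 and 3.89, and 3.98 and 4.02. Both were dim and differed little, with NRSN2 below the other 4 arrays by a narrow margin. The sign against Mock also turned when 1 array was left out for FAM110A (0.04 without the TET2M array at 4.5 g/L), MAVS (0.01 without that at 1 g/L) and SOX12 (0.02 without the Mock array at 4.5 g/L).

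The members carried 155 single-gene probe sets, and 48 genes had more than 1, so the probe sets not used above could be set beside those that were. Of the 83 others with a mean of at least 2.64, 73 were negative in TET2M against Mock, with a median of -0.22, and both TET2M values were below the other 4 in 35, beside 6.44% of the 12629 such probe sets of all genes. All 24 with a mean of at least 6 were negative (median -0.285), and both TET2M values were below the other 4 in 16. The 14 dimmer than 2.64 had a median of 0.02. Over all genes, the median was -0.03 for the 12629 probe sets and -0.025 for the 3186 with a mean of at least 6. Of those 3186, 6.59% had both TET2M values below the other 4. JAG1 had 3 further probe sets, at means of 4.60, 7.09 and 3.76, that differed by -0.645, -0.705 and -0.705 from Mock, and another 2, at 3.27 and 2.99, that differed by -0.05 and 0.01. Several probe sets of a gene read the same RNA and are not independent of each other.

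Along the arm, lower values in TET2M were found in each part of the list. The list was chosen as low in TET2M, so this cannot show whether the arm has an edge, and none was tested. With the members split into 6 runs in gene order, the median difference from Mock was -0.27 from ZCCHC3 to NSFL1C, -0.33 from SIRPA to FASTKD5, -0.24 from DDRGK1 to GPCPD1, -0.49 from TRMT6 to ESF1, -0.28 from NDUFAF5 to DTD1 and -0.30 from RIN2 to ABHD12. Both TET2M values were below the other 4 in between 5 and 7 members of each run. No tested gene preceded ZCCHC3, and 4 tested genes followed ABHD12 on the arm. Of these GINS1, a subunit of the replicative helicase, differed by -0.285 from Mock, NANP, a phosphatase of sialic acid synthesis, by -0.27, the zinc finger gene ZNF337 by -0.345 and the dim NINL by -0.06. Except for NINL, these genes beyond the list differed by about as much as its members.

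The 85 other tested genes of the short arm had a smaller median difference from Mock (-0.11) and 25 of them (29.4%) had both TET2M values below the other 4. They were also dimmer, with a median mean value of 3.88 against 7.10 for the members. The comparison was therefore repeated at a mean value of at least 6, a split chosen after the values were seen. The 18 other genes of the arm above that level had a median of -0.31 from Mock and -0.23 from TET2WT, the 44 members above it -0.30 and -0.23, and all 62 were negative against Mock. Above that level the listed and unlisted genes of the arm had similar medians. The 45 unlisted genes with a mean below 4 had a median of -0.025. The 5 unlisted genes with the lowest values relative to the mean of the other lines were SLC24A3 (-0.695), FLRT3 (-0.66), ACSS1 (-0.53), SHLD1 (-0.525) and SIRPB1 (-0.52). SLC24A3, FLRT3, ACSS1 and SHLD1 were negative against both lines. In that order they differed by -0.325, -0.415, -0.30 and -0.505 from Mock and by -1.065, -0.905, -0.765 and -0.545 from TET2WT. SIRPB1 was not lower than Mock in TET2M (0.10), and its place came from high TET2WT values (-1.14 from TET2WT). The 5 with the highest were C20orf141, BFSP1, CD93, OXT and RSPO4, from 0.20 to 0.255, each with a mean below 5.

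**Figure D2:**
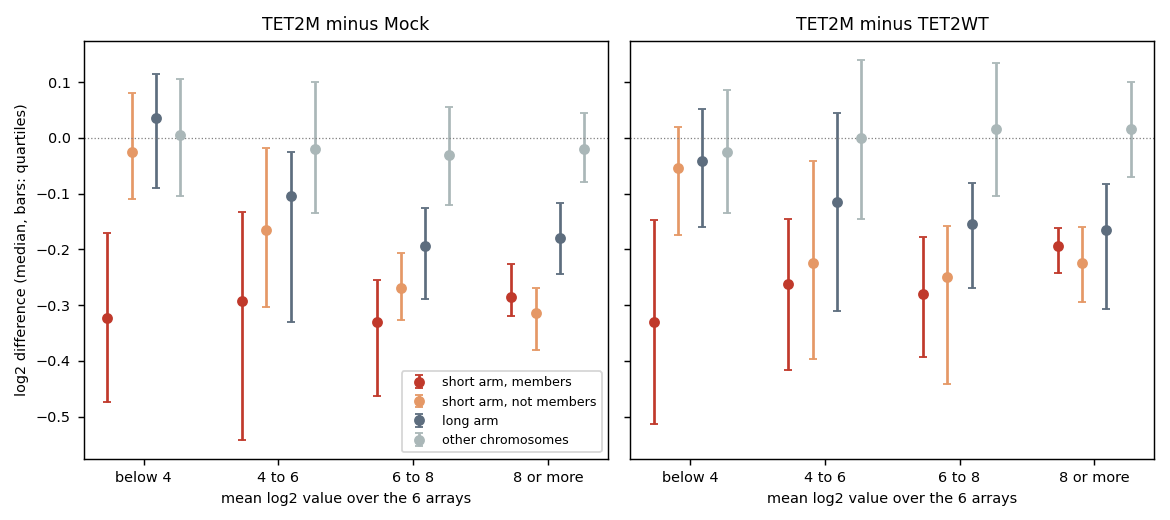
Median log2 difference of TET2M from Mock (left) and from TET2WT (right) with quartiles as bars, by the mean log2 value of the genes, for members, other short-arm genes, long-arm genes and genes of other chromosomes. Members lie near -0.3 against Mock in every class of level (only 2 members are below 4), other short-arm genes go from -0.025 below 4 to -0.315 at 8 or more, and genes of other chromosomes stay near 0.

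Lower values in TET2M were not confined to the short arm. The 298 tested genes of the long arm had a median of -0.12 from Mock and -0.12 from TET2WT, and both TET2M values were below the other 4 in 84 of them (28.2%). At a mean value of at least 6, the 137 long-arm genes had a median of -0.19 from Mock, and 127 were negative. Read in blocks of 12 to 14 such genes, also chosen after the values were seen, the 5 blocks of the short arm had medians from -0.35 to -0.28. The first block of the long arm, from HM13 to RALY, was at -0.29 with 13 of its 14 genes below the other 4 arrays, and the 9 further blocks lay from -0.23 to -0.13. The short-arm blocks and the first long-arm block thus lay lower against Mock than the rest of the long arm. Against TET2WT the ranges overlapped, with -0.28 to -0.18 on the short arm and -0.255 to -0.10 in the 9 further long-arm blocks. No test of the arms was made, since the members were chosen from the same contrasts.

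**Figure D3:**
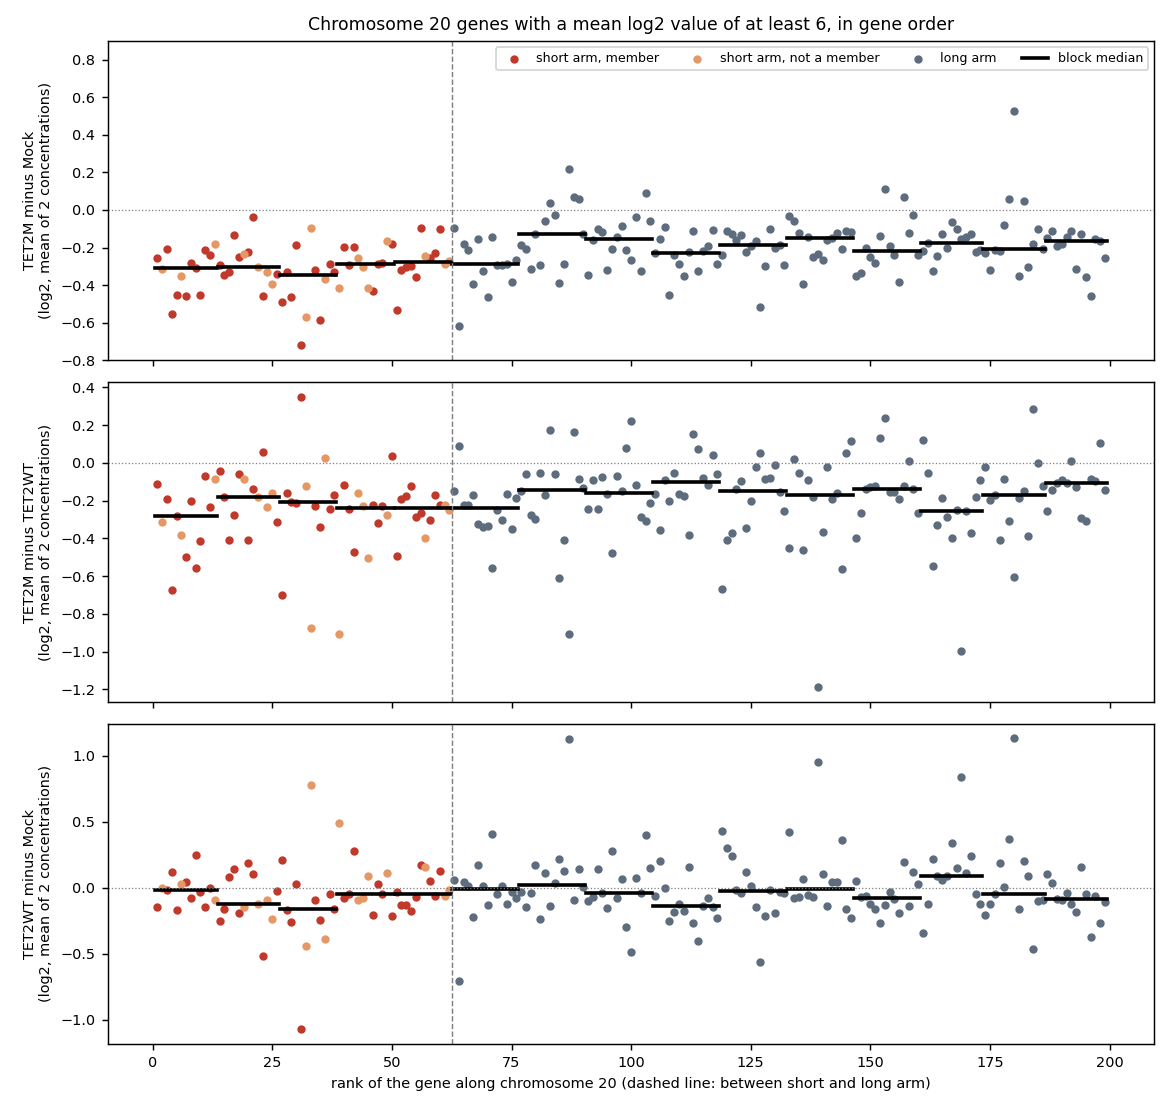
Log2 differences (mean of the 2 concentrations) of TET2M from Mock (top), TET2M from TET2WT (middle) and TET2WT from Mock (bottom) for chromosome 20 genes with a mean value of at least 6, by their rank along the chromosome; points are genes, black lines block medians, and the dashed line parts the arms. In the top panel all 62 short-arm genes lie below 0 and the block medians are -0.35 to -0.28, in the bottom panel the short-arm block medians lie between -0.165 and -0.02.

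Chromosome 20 as a whole stood apart from the other chromosomes in TET2M. Its 441 tested genes had a median of -0.145 from Mock and the same from TET2WT, and 33.3% had both TET2M values below the other 4. Over the 22 other chromosomes (1 to 19, 21, 22 and X), the median from Mock lay between -0.04 and 0.08 and that share between 2.72% and 9.63%. Against TET2WT the medians of the others lay between -0.045 and 0.29, the latter on chromosome 13. Chromosome 20 was not picked apart from these values, since its 441 genes include the 58 members, chosen as low in the same contrasts. The members were 38 of its 147 genes with both TET2M values below the other 4. That share was 29.4% in the other short-arm genes and 28.2% on the long arm. The arrays measured RNA only, and the number of copies of the chromosome in these lines was not measured here.

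**Figure D4:**
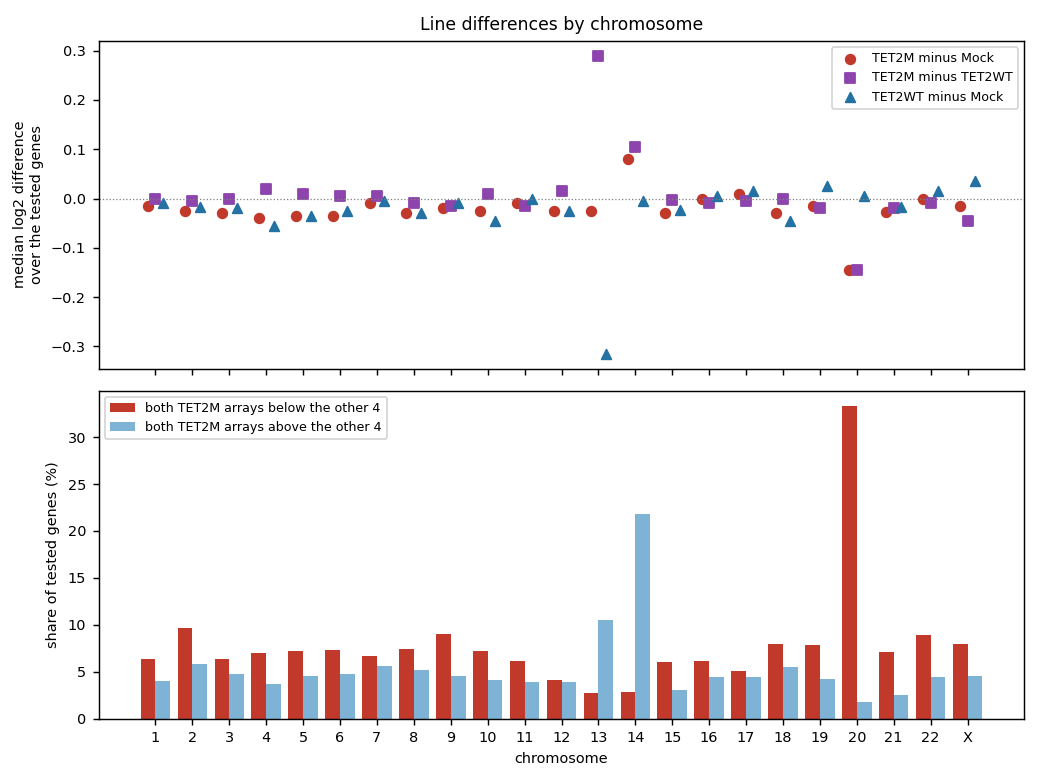
Top: median log2 difference between lines over the tested genes of each chromosome (circles TET2M minus Mock, squares TET2M minus TET2WT, triangles TET2WT minus Mock). Bottom: share of tested genes (%) with both TET2M arrays below (red) or above (blue) the other 4. Chromosome 20 has both TET2M medians at -0.145 and a red bar of 33.3%, against at most 9.63% on the other chromosomes. Its genes include the members, chosen as low in TET2M.

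TET2WT against Mock was a contrast that did not choose the members, although it shares its arrays with those that did. The members had a median of -0.05 (-0.01 over all genes), and 37 were negative and 21 positive, beside 51.8% negative over all genes. With limma over all 6 arrays and Benjamini-Hochberg adjustment over all 14428 genes, 2 of the 58 members passed an adjusted p of 0.05, beside 608 genes in all (4.21%). FERMT1 fell by 1.07 ± 0.15 on the log2 scale (SE, limma, adjusted p = 0.0194) and was lower at both concentrations, the 1 member among the 2.2% of all genes that passed as lower. SIRPA rose by 0.825 ± 0.13 (SE, limma, adjusted p = 0.0301) and was higher at both, the 1 member among the 2.01% that passed as higher. At an unadjusted p under 0.05, limma gave 8 of the 58 members beside 20.2% of all genes. PRNP, with -0.52 ± 0.14 (limma, adjusted p = 0.116), had the smallest adjusted p of the members that did not pass.

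Both calls rest on few arrays. With each of the 6 arrays left out in turn, FERMT1 lay at -1.32 to -0.82 and SIRPA at 0.61 to 1.04, so both kept their sign. Each such fit left 1 array in a line, so whether a gene passed in it cannot decide how firm these calls are. Further probe sets of FERMT1, at means of 5.90 and 5.51, differed by -1.355 and -1.255 between TET2WT and Mock. A further probe set of SIRPA, at 5.11, differed by only -0.04 in that contrast, while both its TET2M values lay below the other 4. SIRPB1, a related receptor gene of the same arm, read 2.56 and 2.68 in Mock, about the low-value level of 2.64, and 3.42 and 4.30 in TET2WT, and sharing of signal between probe sets of these related genes was not tested.

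No member passed the test of glucose. With limma on all 6 arrays, 0 of 58 members passed for 4.5 against 1 g/L, beside 1 gene in all (0.00693%), and 10 members (17.2%) had an unadjusted p under 0.05 beside 15.4% of all genes. The median difference over the members was -0.01, and the smallest adjusted p by limma was 0.198. RIN2, at 0.29 ± 0.07 (limma, adjusted p = 0.198), was higher at 4.5 g/L in all 3 lines. PLCB4 differed by 0.34, FASTKD5 by 0.32 and SIRPA by -0.32, none of which passed. Differences of up to 0.34 thus went without a call with 6 arrays.

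Whether the members responded to glucose otherwise in TET2M than in the other lines was tested with an added term for TET2M, which left 1 residual degree of freedom. In that limma fit 0 of 58 members passed an adjusted p of 0.05, beside 0 genes in all (0%), and 0 members had an unadjusted p under 0.05, beside 2.09% of all genes. The differences of response ran from -0.37 to 0.445, the latter in BMP2. BMP2 differed between 4.5 and 1 g/L by -0.39 in Mock, -0.32 in TET2WT and 0.09 in TET2M. A fit with 1 residual degree of freedom can miss large differences.

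**Figure D5:**
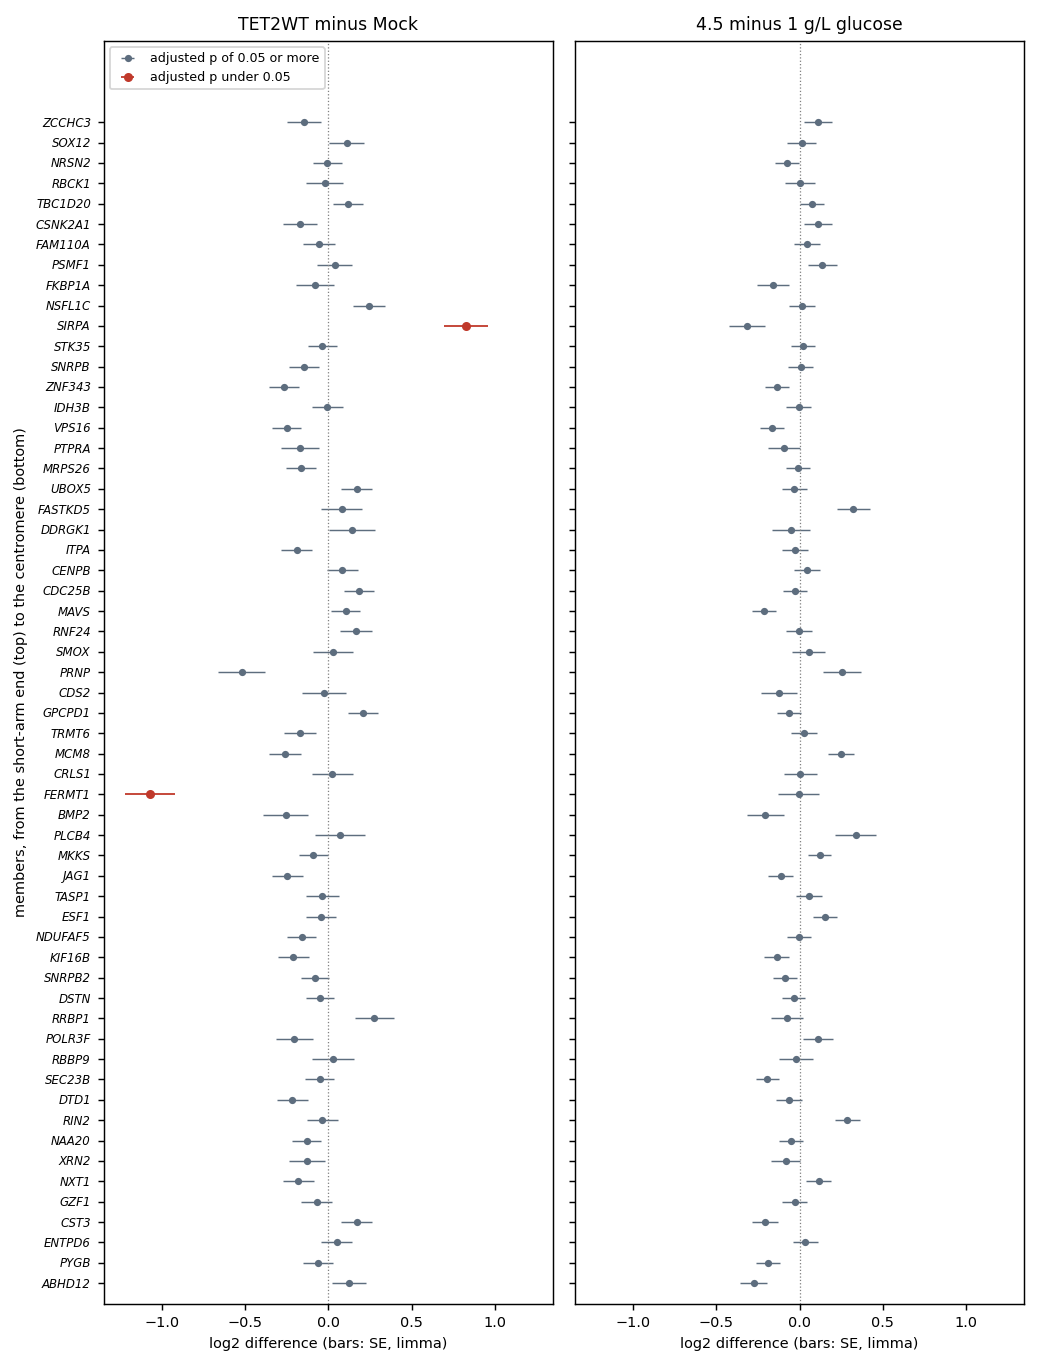
Log2 difference with its standard error (limma) for each member, in gene order, between TET2WT and Mock (left) and between 4.5 and 1 g/L glucose (right); red points have an adjusted p under 0.05. FERMT1 at -1.07 and SIRPA at 0.825 are the 2 red points on the left, and there are none on the right.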

How the data were processed

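Total RNA of 6 cultures was measured on 6 Affymetrix arrays, 1 per line and glucose concentration. The authors deposited log2 values per probe set, for which the submitters' processing notes name Affymetrix Expression Console. The base of the log was inferred from the range of the values. The summary method is not given in the sources used here. They were used without further normalization.

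Of 54675 probe sets (62 controls), 41097 named 1 gene in the platform annotation, 1801 several and 11777 none, and 41037 were matched to a GRCh38.p14 gene table by gene ID. Single-gene probe sets with a mean of at least 2.64, the 40th percentile, were kept, and the brightest stood for its gene, which left 14428 genes. All 58 measured members passed, and 0 had an array below that level. Gene order and arms came from the gene table.

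limma 3.58.1 (R 4.3.3) fitted line and glucose over 6 arrays (2 residual degrees of freedom). Its p-values set a difference of line or glucose against departures from additivity among single arrays, moderated over all genes. Those departures may be technical and do not measure the spread between repeated cultures. A second fit added a glucose term for TET2M. Tests were two-sided with Benjamini-Hochberg adjustment. The script's fits were tested on simulated data. Precision is limited by the number of arrays. The members and lists were chosen with earlier results of these data known. Members given in full were the 10 lowest and 5 highest in TET2M relative to the other lines, those passing a test and the 2 lowest of each role; other members and probe sets with values were chosen after these were seen.

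Alternatives were another normalization, other low-value filters, the mean of the probe sets of a gene, an intensity trend, a model without glucose or line, and leaving out each array. Figures used Python 3.11.15 and matplotlib 3.10.9.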

Additional observations from a re-analysis of the deposited data

How the results depend on the processing

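The median of TET2M minus Mock over the members (-0.30) was -0.27 after quantile normalization, -0.27 with the mean of the probe sets of a gene, -0.33 at 1 g/L glucose and -0.27 relative to other genes of the same level, and -0.32 to -0.28 leaving out each array. That of TET2M minus TET2WT (-0.23) was -0.21 with arrays centred on their medians, -0.175 with the mean of the probe sets, -0.22 at 4.5 g/L and -0.24 relative to other genes of the same level, and -0.24 to -0.22 leaving out each array. The reference to genes of the same level, and the count without PLCB4 (37 of 57 below the other 4 arrays), were chosen after seeing the data. The count of 38 was 36 to 39 under the planned settings. For TET2WT minus Mock, 1 member passed with the mean of the probe sets of a gene, 1 without a glucose term, 3 with an intensity trend and 0 leaving out any 1 array. Over all genes the intensity trend gave 1528 calls in place of 608 for that contrast and 573 in place of 1 for glucose, while leaving out an array gave 0 or 16 for TET2WT minus Mock. In no setting run did a member pass for glucose or for the TET2M response to glucose. The cause of these changes was not tested. No paired analysis was possible because the labels carry no replicate numbers to pair arrays by, while the glucose term matches arrays by concentration. Precision is limited by 6 arrays and by signal close to background for the dimmest members.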

Other observations

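The first genes of the chromosome 20 long arm read in TET2M much like the short-arm members. In the block from HM13, an intramembrane protease, to RALY, an RNA-binding protein, 13 of 14 genes with a mean value of at least 6 had both TET2M values below the other 4 arrays, and the median differences were -0.29 from Mock and -0.24 from TET2WT. The next block, from EIF2S2 to CPNE1, had medians of -0.13 and -0.14, with 3 of 14 genes below. The blocks were set after the values were seen, and the step between them was not tested. A second chromosome moved the other way in TET2M: on chromosome 14, 100 of 458 tested genes (21.8%) had both TET2M values above the other 4, with medians of 0.08 from Mock and 0.105 from TET2WT. On chromosome 13 the line apart was TET2WT, with a median of -0.315 from Mock over 257 genes, while TET2M differed from Mock by -0.025.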
